A study of Mus musculus with 6 samples.

Results

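Expression was examined for 10 mouse genes grouped around citrulline and arginine synthesis in enterocytes: Cps1, Otc, Nags, Ass1, Asl, Arg1, Arg2, Aldh18a1, Prodh and Oat. Among them Arg1 and Arg2 encode arginases, which break arginine down. They were chosen by name for their place in the pathway, with earlier results of these data known. Each gene was read from its brightest probe set annotated to that symbol alone. This left 9 of the 10 genes among 19938 measured genes. Ass1, argininosuccinate synthase, was not analysed, because its 2 probe sets are also annotated to Gm5424.

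The samples were whole small intestine of mouse embryos at E18.5: 3 arrays of an E-cadherin conditional knockout (cKO), labelled Ecad_Mut, and 3 arrays of controls, labelled Ecad_Con and described as wild type. E-cadherin is the main adhesion molecule of epithelial adherens junctions. The promoter driving recombination, the deleted part of the gene, the embryos' sex and any pooling are stated neither in the labels nor in the design text. Nor do the labels tie each array to an animal of its own, so the p-values reflect the spread among these 6 arrays, possibly a technical one. Values are the deposited log2 expression values of an Affymetrix whole-transcript array, and differences are cKO minus control on that log2 scale.

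In the small intestine around birth, enterocytes turn glutamine, glutamate and proline into citrulline and arginine, and milk supplies little arginine. Nags makes N-acetylglutamate, without which Cps1 cannot form carbamoyl phosphate from ammonia and bicarbonate. Otc joins carbamoyl phosphate to ornithine to give citrulline, which Ass1 and Asl convert to arginine. Ornithine comes from pyrroline carboxylate through Oat, and pyrroline carboxylate from glutamate through Aldh18a1 or from proline through Prodh. The arginases Arg1 and Arg2 split arginine into urea and ornithine.

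All arrays carried intestinal epithelium: the 10 general epithelial markers averaged 10.91 to 10.93 in cKO arrays and 10.67 to 10.93 in control arrays (mean log2 level of the list). These averages include 3 keratin genes that rose in cKO, while the other markers of the list all lay lower in cKO. Like averages therefore do not establish like amounts of epithelium. Cdh1, the E-cadherin gene, read 9.70, 8.38 and 8.91 in cKO 1, 2 and 3, against 9.86, 9.82 and 10.15 in controls 1, 2 and 3. Its difference of -0.95 (SE 0.31) missed the threshold (limma adjusted p = 0.088), and the value of cKO 1 lay only 0.24 below the control mean. Both cKO 2 and cKO 3 stand apart in other ways. On cKO 2, the median of 1228 sensory receptor genes (smell, taste and vomeronasal), taken as a gauge of background, lay at -0.37 relative to the control mean (log2), and at -0.06 to 0.09 on the other arrays. On cKO 3, 5 exocrine pancreas genes averaged 10.68 (log2), against 5.87 on the lowest cKO array and 6.26 to 6.53 in control arrays. Background here is the 95th percentile of the receptor genes on an array, 5.72 to 6.36 over the 6 arrays, and every one of the 9 enzyme genes lay above it on every array.

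Of the 9 enzyme genes measured, 7 fell in cKO intestine and 0 rose (limma, Benjamini-Hochberg over all 19938 genes, adjusted p under 0.05). Over all genes, 7.36% were called lower, 6.81% higher and 14.2% in either direction. Because the enzyme genes were chosen with earlier results known, their count was not tested against these shares. The genes that fell were Cps1, Otc, Nags, Asl, Aldh18a1, Prodh and Oat, with cKO levels of 25.8% to 59.6% of control. The arginase genes Arg1 and Arg2 did not pass the test. The median difference of the 9 genes was -1.21, against -0.09 over all genes. In each of the 7 genes the highest cKO array lay under the lowest control array, an arrangement found in 19.3% of all genes. The 7 genes were called on these same arrays, so this separation largely restates the call. All 7 calls held when any 1 array was left out, cKO 1, cKO 2 and cKO 3 included, with a highest adjusted p of 0.0446 (Cps1 without control 3). In whole tissue, fewer cells of a type and less RNA per cell cannot be told apart.

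**Figure D1:**
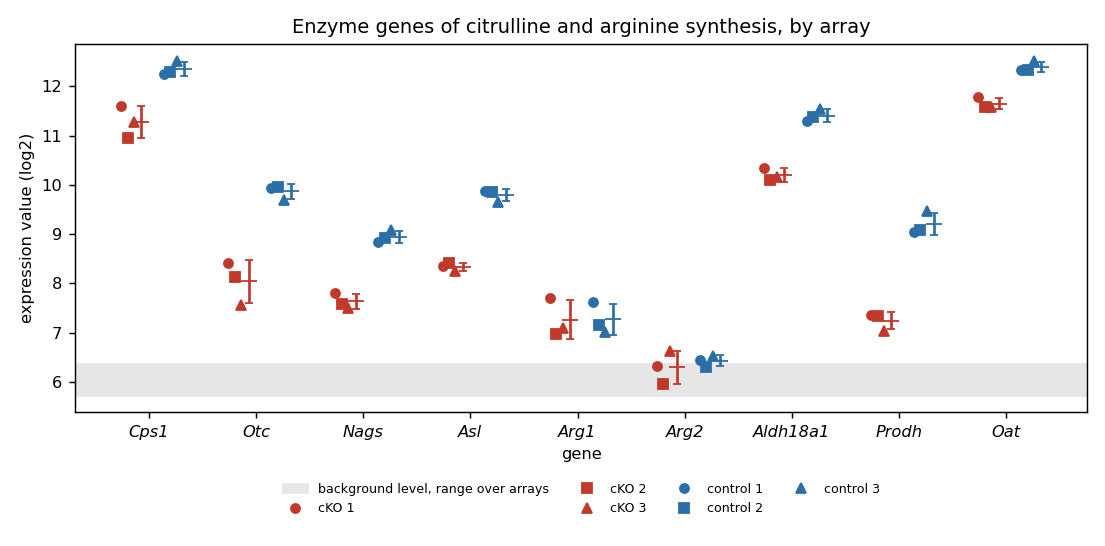
Expression value (log2) of the 9 measured enzyme genes on each array, cKO arrays in red left of control arrays in blue, with mean and SD beside the points (n = 3 each). The grey band is the background level, 5.72 to 6.36 over the arrays. The groups lie apart for 7 genes and overlap for Arg1 and Arg2.

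Promoters are shown for Otc and Prodh, the 2 enzyme genes with the largest falls. RefSeq promoter windows (build GRCm38.p6, 250 bases before to 50 after the start) were held for 5 of the 9 measured genes: Otc, Nags, Aldh18a1, Prodh and Oat. The 250 bases before the start are printed, 5′ to 3′ on the gene's strand, for Otc at chrX:10252055-10252304 (plus strand) and for Prodh at chr16:18089191-18089440 (minus strand). Capitals mark AAAGNNCA, a short form of the site of the nuclear receptor HNF4.
Otc: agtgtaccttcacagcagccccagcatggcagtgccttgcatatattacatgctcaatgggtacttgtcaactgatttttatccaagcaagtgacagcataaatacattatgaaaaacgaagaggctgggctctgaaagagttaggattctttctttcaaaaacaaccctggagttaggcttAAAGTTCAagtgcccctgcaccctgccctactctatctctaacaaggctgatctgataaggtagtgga
Prodh: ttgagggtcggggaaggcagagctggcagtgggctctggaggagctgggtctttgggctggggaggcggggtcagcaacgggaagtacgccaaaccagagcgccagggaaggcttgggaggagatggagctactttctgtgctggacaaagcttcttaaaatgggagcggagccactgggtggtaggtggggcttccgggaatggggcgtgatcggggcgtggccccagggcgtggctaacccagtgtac

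Both strands were searched in the 300-base windows. The longer HNF4 form CAAAGNNCA, the C/EBP form TTGCNNAA and the TATA form TATAAA had 0 matches in the 5 windows; they occur in 6.36%, 10.8% and 13.6% of 32851 promoter windows. The short HNF4 form, which is contained in the longer one and was chosen after the longer one had no match, lay at position -68 of Otc and in none of the other 4 windows. It occurs in 19.6% of all windows. The GC box GGGCGG, added at the same time and found in 35.7% of all windows, matched in Oat, Nags and Aldh18a1 and in neither window printed here. The Otc window held 44.3% G and C, below the median of 52.7% over all windows, while the other 4 held 57.7% to 63.0%. These matches describe letters, not bound sites.

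The 3 genes of citrulline synthesis fell. Cps1, the carbamoyl phosphate synthetase of mitochondria, read 11.61, 10.96 and 11.27 in cKO 1, 2 and 3, against 12.25, 12.29 and 12.51 in controls 1, 2 and 3. The highest cKO array lay 0.64 below the lowest control array. The difference was -1.07 (SE 0.18, 95% interval -1.49 to -0.65, limma adjusted p = 0.0088), which puts the cKO level at 47.6% of control (95% interval 35.6% to 63.8%).

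Otc, ornithine transcarbamylase, read 8.42, 8.13 and 7.57 in cKO 1, 2 and 3, against 9.94, 9.96 and 9.70 in controls 1, 2 and 3. The lowest cKO value was on cKO 3, and the groups lay 1.28 apart. The difference was -1.83 (SE 0.22, 95% interval -2.34 to -1.32, limma adjusted p = 0.0026), a cKO level of 28.2% of control. Without cKO 3, the array with the pancreatic genes, it was -1.59.

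Nags, which makes the activator of Cps1, read 7.81, 7.58 and 7.51 in cKO 1, 2 and 3, against 8.83, 8.93 and 9.08 in controls 1, 2 and 3. The 3 cKO arrays agreed closely (SD 0.16), as did the controls (SD 0.13). The difference was -1.31 (SE 0.13, 95% interval -1.62 to -1.01, limma adjusted p = 0.0015), a cKO level of 40.2% of control.

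Asl, argininosuccinate lyase, which releases arginine, fell as well. It read 8.36, 8.41 and 8.25 in cKO 1, 2 and 3, against 9.88, 9.86 and 9.66 in controls 1, 2 and 3. Its cKO arrays spread least among the 9 genes (8.34 ± 0.08 in cKO and 9.80 ± 0.12 in control, SD, n = 3 each). The difference was -1.46 (SE 0.12, 95% interval -1.73 to -1.19, limma adjusted p = 0.00078), or 36.3% of control.

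The 3 genes that supply ornithine fell by different amounts. Prodh, proline dehydrogenase, had the largest fall of the 9 genes. It read 7.36, 7.33 and 7.04 in cKO 1, 2 and 3, against 9.05, 9.09 and 9.46 in controls 1, 2 and 3. The groups lay 1.69 apart, and the difference was -1.96 (SE 0.16, 95% interval -2.32 to -1.59, limma adjusted p = 0.00078), a cKO level of 25.8% of control. Of the 19938 genes, 107 had a more negative difference than Prodh and 131 than Otc.

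Aldh18a1, the synthase that makes pyrroline carboxylate from glutamate, read 10.35, 10.09 and 10.15 in cKO 1, 2 and 3, against 11.30, 11.37 and 11.55 in controls 1, 2 and 3. The difference was -1.21 (SE 0.13, 95% interval -1.51 to -0.91, limma adjusted p = 0.0017), or 43.2% of control. Every cKO array lay at least 0.95 below every control array.

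Oat, ornithine aminotransferase, had the smallest fall of the 7. It read 11.78, 11.58 and 11.59 in cKO 1, 2 and 3, against 12.33, 12.34 and 12.52 in controls 1, 2 and 3. The groups lay 0.55 apart, with a difference of -0.75 (SE 0.12, 95% interval -1.03 to -0.47, limma adjusted p = 0.0071), or 59.6% of control. The intervals of Oat and Prodh do not overlap, whereas genes next to each other in the order Prodh, Otc, Asl, Nags, Aldh18a1, Cps1 and Oat have overlapping intervals. No difference between genes was tested.

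The arginase genes did not pass the threshold. Arg1, the cytosolic arginase of liver and of some macrophages, read 7.71, 6.98 and 7.10 in cKO 1, 2 and 3, against 7.63, 7.16 and 7.02 in controls 1, 2 and 3. The groups overlapped throughout, and the difference was -0.01 (95% interval -0.56 to 0.55, limma adjusted p = 0.99). This interval overlaps that of Oat (-1.03 to -0.47).

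Arg2, the mitochondrial arginase, read 6.33, 5.95 and 6.62 in cKO 1, 2 and 3, against 6.44, 6.31 and 6.53 in controls 1, 2 and 3. The groups overlapped, and all arrays lay close to background. The difference was -0.13 (95% interval -0.55 to 0.30, limma adjusted p = 0.68), and this interval also overlaps that of Oat. The lowest value was on cKO 2, the array on which dim genes read low. The sign of both arginase differences turned with the processing, for Arg1 under cyclic loess, median centring and quantile normalization (highest value 0.09) and with centring on the epithelial median (0.17).

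**Figure D2:**
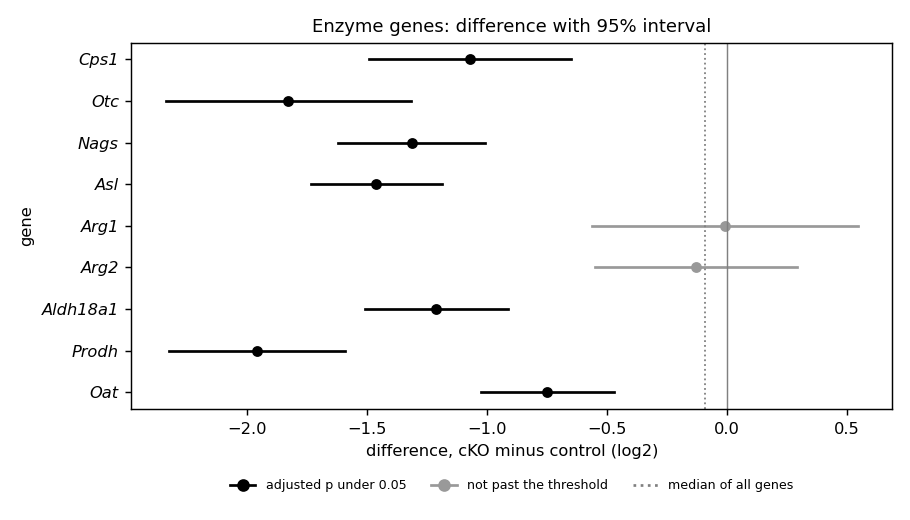
Difference between cKO and control (log2, points) with its 95% interval (lines) for the 9 measured enzyme genes, in the order of the pathway. Black marks the 7 genes past the threshold, from -0.75 for Oat to -1.96 for Prodh, and grey Arg1 and Arg2, whose intervals include 0. The dotted line is the median of all genes, -0.09.

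Enterocyte markers moved in the same direction as these genes. Of 11 measured enterocyte markers, 7 fell and 0 rose, with a median difference of -1.16; their mean log2 level was 8.91 to 9.12 in cKO arrays and 10.06 to 10.63 in control arrays. Of the 10 general epithelial markers, 3 rose and 2 fell, with a median difference of -0.19. Those that rose were the keratin genes Krt8 (0.91), Krt18 (1.19) and Krt20 (1.61), and those that fell were Cdx1 (-0.60) and Cdx2 (-0.79). Epcam, Cdh17, Cldn7, Vil1 and Lgals4 were not called, with differences of -0.10 (Epcam) to -0.31 (Vil1 and Lgals4). The mean of those 10 markers differed by 0.12 between cKO and control and their median deviation by -0.18, so centring each array on the one or the other moves every gene down or up by that amount. Both scalings were added once the values were known. The 7 enzyme genes fell under both, with differences of -0.87 (Oat) to -2.08 (Prodh) for the mean and -0.57 (Oat) to -1.78 (Prodh) for the median, where the highest limma adjusted p was 0.029 (Oat).

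Markers of tissue outside the epithelium differed by list. All 7 smooth muscle and all 6 fibroblast markers rose (median differences 0.86 and 0.69), and of 10 macrophage markers 8 rose and 0 fell (median 1.07). Of 6 endothelial markers 0 passed the threshold, of 6 measured markers of enteric neurons and glia 1 rose (median 0.20 for either list), and of 2 measured red blood cell markers 0 passed (median -0.15). The macrophage list averaged 8.22 to 8.70 in cKO arrays and 7.35 to 7.54 in control arrays, beside the difference of -0.01 in Arg1. Of 9 neutrophil markers 3 rose (median 0.02), S100a8 by 1.37, Ly6g by 3.28 and Cxcr2 by 2.19, each highest on cKO 2. The part of these cells in the enzyme results was not tested. Cps1, Otc and Nags are also genes of hepatocytes. Of 11 liver markers, Alb, Ahsg, Tat, Cyp2e1 and Tdo2 lay below background on every array. The others lay above it on at least some arrays, with Ttr at 10.18, 10.03 and 8.94 in cKO and 11.28, 11.05 and 9.74 in control. The liver list averaged 5.81 to 5.99 in cKO arrays and 6.34 to 6.50 in control arrays, with a median difference of -0.17. In it 2 genes fell, Fgb (-1.95) and G6pc (-2.60), and Ttr differed by -0.97 without passing the threshold. The other liver markers differed by -0.21 (Tdo2) to 0.15 (Alb). No marker of the 11 lists was at 0 on any array.

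**Figure D3:**
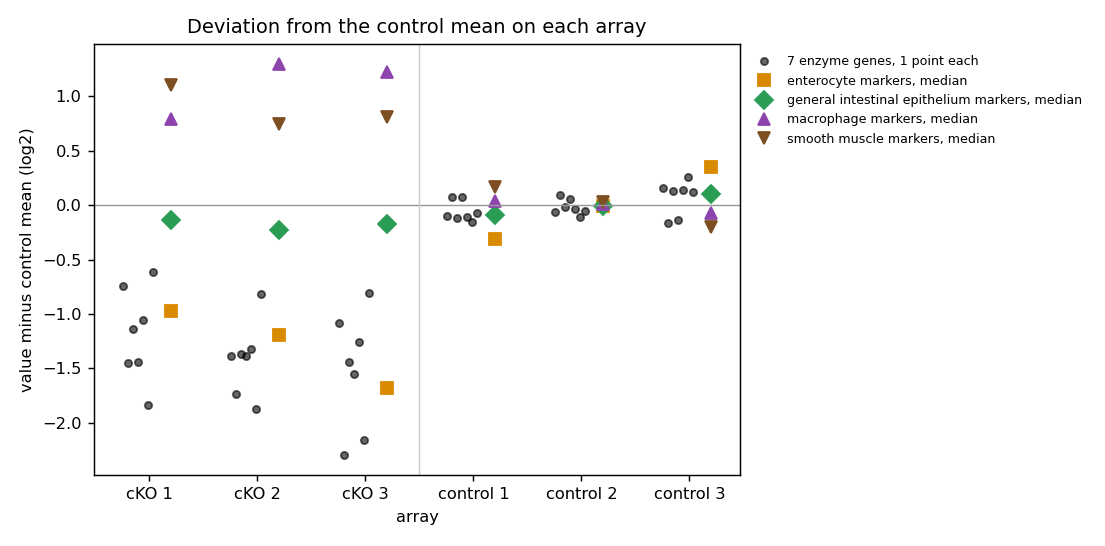
Deviation from the control mean (log2) on each array, cKO arrays left of control arrays, for the 7 enzyme genes that fell (black points) and for the median of 4 marker lists (coloured symbols). All 7 genes and the enterocyte median lie below 0 on every cKO array, the general epithelial median lies near 0, and the macrophage and smooth muscle medians lie above 0.

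On the cKO arrays the 7 genes did not share 1 order. Of the 3 cKO arrays, Cps1 was lowest on cKO 2 (-1.39 relative to the control mean) and highest on cKO 1 (-0.74), the array with the highest Cdh1 value. Otc, Nags, Aldh18a1, Prodh and Oat were also highest on cKO 1 among the cKO arrays, and Asl was highest on cKO 2. The lowest Cdh1 value was on cKO 2 (8.38), as were those of Cps1, Aldh18a1 and Oat, while Otc, Nags, Asl and Prodh were lowest on cKO 3. A link between these genes and the Cdh1 value was not tested. Otc deviated by -1.45, -1.74 and -2.30 on cKO 1, 2 and 3, and Prodh by -1.84, -1.87 and -2.16. Asl deviated by -1.44, -1.39 and -1.55, so that its values on the 3 arrays were nearly alike.

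The genes of neighbouring steps were taken from 6 lists. Among suppliers of glutamate, glutamine and aspartate, 1 of 6 measured genes rose and 1 fell. Gpt, the cytosolic alanine aminotransferase, read 6.42, 6.44 and 7.25 in cKO and 7.96, 7.94 and 8.34 in control, a difference of -1.38 (SE 0.24, limma adjusted p = 0.011). Glul, glutamine synthetase, rose by 0.72 (SE 0.12, limma adjusted p = 0.0095). The mitochondrial glutamate dehydrogenase gene Glud1 differed by 0.15 (95% interval -0.15 to 0.44, limma adjusted p = 0.49). The call of Gpt was lost without control 3 (adjusted p = 0.0512) and that of Glul without control 2 (0.0543).

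Of 3 measured genes next to pyrroline carboxylate, 2 fell and 0 rose. Pycrl, a reductase that makes proline from it, fell by 0.69 (SE 0.12, limma adjusted p = 0.011), and Prodh2, a dehydrogenase of hydroxyproline, by 0.67 (SE 0.17, limma adjusted p = 0.040). Pycrl was not called without control 2, and Prodh2 not without cKO 1, cKO 2 or any 1 of the controls (highest adjusted p = 0.149). Neither was called with arrays centred on the epithelial median (adjusted p = 0.0918 and 0.0968).

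Of 16 carriers of ornithine, citrulline, aspartate, glutamate and basic amino acids, 7 fell and 2 rose, with a median difference of -0.51. Slc25a15, the mitochondrial carrier that exchanges ornithine for citrulline, read 9.56, 9.07 and 8.96 in cKO 1, 2 and 3, against 10.31, 10.37 and 10.42 in controls 1, 2 and 3. The highest cKO array lay 0.75 below the lowest control array, with a difference of -1.17 (SE 0.17, limma adjusted p = 0.0052). The subunits of the apical transporter of cystine and basic amino acids fell together, Slc7a9 by 1.16 (SE 0.13) and its partner Slc3a1 by 1.21 (SE 0.17). Slc7a7, a subunit of the basolateral exporter of arginine, fell by 0.79 (SE 0.12), and Slc6a19, the apical carrier of neutral amino acids, by 1.26 (SE 0.21). Slc25a12, an aspartate and glutamate carrier of mitochondria, rose by 0.73 (SE 0.11), with 8.38, 8.41 and 8.40 in cKO against 7.71, 7.71 and 7.57 in control. These 6 carriers had limma adjusted p at or below 0.0079 and kept their calls when any 1 array was left out.

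Of 15 measured genes of arginine and ornithine use and of the polyamine, creatine and methylarginine steps next to it, 5 rose and 3 fell. Odc1, ornithine decarboxylase, read 10.56, 10.65 and 10.64 in cKO and 10.14, 10.20 and 9.99 in control, a difference of 0.51 (SE 0.11, limma adjusted p = 0.024). Srm, spermidine synthase, rose by 0.93 (SE 0.20, limma adjusted p = 0.021), and Smox, spermine oxidase, by 1.20 (SE 0.13, limma adjusted p = 0.0020). Ddah1, which breaks down methylated arginines, rose by 1.31 (SE 0.24, limma adjusted p = 0.012).

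The creatine synthesis genes in that list fell. Gatm, which transfers the amidino group of arginine, read 7.76, 7.97 and 8.82 in cKO and 9.25, 9.11 and 9.58 in control, a difference of -1.13 (SE 0.28, limma adjusted p = 0.036). Gamt, the next enzyme, fell by 0.69 (SE 0.16, limma adjusted p = 0.028). Nos2, the inducible nitric oxide synthase, was above background on 2 cKO arrays and 0 control arrays, and differed by 0.38 (limma adjusted p = 0.26). Smox was called in all 18 alternative fits. Without control 2 the calls of Odc1, Srm, Ddah1, Gatm and Gamt were lost. Those of Odc1, Srm and Gatm were also lost without control 3, of Odc1, Gatm and Gamt without control 1, of Odc1 and Srm without cKO 3, and of Gatm and Gamt without cKO 1 or cKO 2 (adjusted p = 0.0531 to 0.137). With array weights, which were largest for cKO 3 (2.985), Gatm differed by -0.62 and was not called. Odc1 was also not called with the replicate number as a block or with arrays centred on the epithelial mean, and Gamt not with the block, with median centring or with arrays centred on the epithelial median.

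Of 4 genes listed as helpers of carbamoyl phosphate synthesis or of its use by Otc, 2 fell. Sirt3, a mitochondrial deacetylase that acts on Otc, fell by 0.88 (SE 0.14, limma adjusted p = 0.0074). Car5a, the mitochondrial carbonic anhydrase that supplies bicarbonate, fell by 0.76 (SE 0.20, limma adjusted p = 0.042), a call lost without cKO 2, cKO 3, control 2 or control 3 (highest adjusted p = 0.148), with the replicate block (0.07) and with arrays centred on the epithelial median (0.0583). Sirt5, which removes acyl groups from Cps1, differed by 0.06 (95% interval -0.24 to 0.36, limma adjusted p = 0.77) and lay near background.

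Of 13 measured transcription factors known for urea cycle genes in liver, 6 fell and 1 rose. Cebpa read 7.87, 7.93 and 7.86 in cKO 1, 2 and 3, against 9.53, 9.40 and 9.26 in controls 1, 2 and 3, a difference of -1.51 (SE 0.12, limma adjusted p = 0.00072). Hnf4g fell by 1.52 (SE 0.24) and Hnf4a, its paralogue, by 0.88 (SE 0.18). The call of Hnf4a was lost without cKO 3 (adjusted p = 0.0649). Ppara, the fasting-responsive nuclear receptor, fell by 1.09 (SE 0.17) and Cebpg by 0.52 (SE 0.10), while Foxa3 rose by 0.82 (SE 0.16, limma adjusted p = 0.015). Cebpg was not called without cKO 3 or any 1 control, nor Foxa3 without cKO 3, control 2 or control 3 (highest adjusted p = 0.0779 and 0.0701). Cebpg was also not called with median centring (adjusted p = 0.0906), the replicate block (0.0572) or arrays centred on the epithelial median (0.172), and Foxa3 not with arrays centred on the epithelial mean (0.0504).

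**Figure D4:**
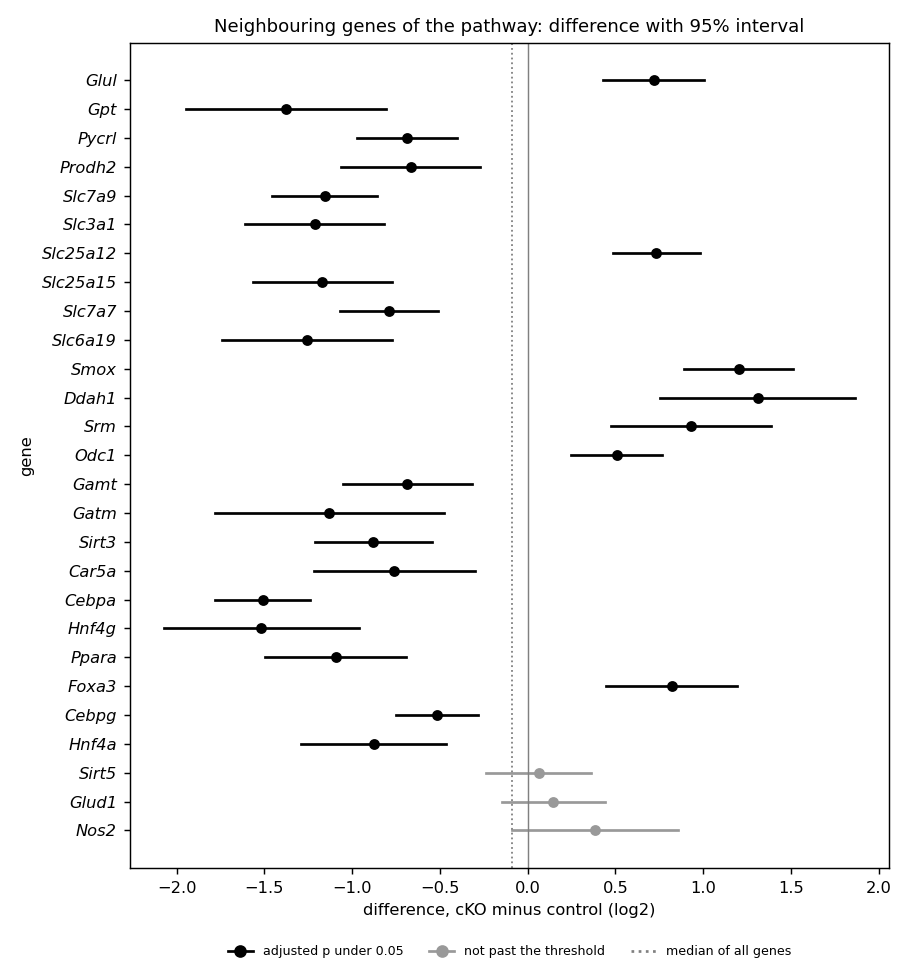
Difference between cKO and control (log2, points) with 95% interval (lines) for the named genes of neighbouring steps, carriers and transcription factors, grouped by list from top to bottom. Black marks genes past the threshold and grey the 3 that were not, Sirt5, Glud1 and Nos2. Smox and Ddah1 have the largest rises and Hnf4g and Cebpa the largest falls among those shown.

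The 5 genes outside the pathway whose deviations from their own control means lay closest to those of Cps1 over the 6 arrays were Pycard, Exph5, Gstt3, Sytl3 and Ppara (root mean square distance 0.04 to 0.09, log2). For Otc they were Hao2, Xkr9, Snx8, Ugt2b35 and Fahd1 (0.08 to 0.16). With 3 arrays per group this likeness rests mainly on the size of the difference between the groups.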

How the data were processed

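RNA of 6 samples was measured on Affymetrix Mouse Gene 1.0 arrays and analysed by the authors in dChip, per the series design text. Neither the labels nor that text state the dChip version, background correction, normalization or genome build. The deposited table gives 35512 probe sets with a value for each array (0 to 14.07), read as log2 expression values from that range. The arrays carry no read depth, and their number limits the precision.

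Names came from the platform annotation (21789 with 1 symbol, 1621 with several, 12102 with none listed), and 21698 of the single symbols were brought up to date by gene identifier. The brightest probe set was kept for each of 19938 genes, 999 of which had several. No filter on dim genes was used. Genes were tested with limma 3.58.1 (lmFit and eBayes, R 4.3.3, no covariate), with Benjamini-Hochberg adjustment over all genes and a threshold of 0.05, and the script was tested on simulated data. SE is limma's moderated standard error, and group values are means ± SD. Percent of control is 2 to the power of the log2 difference.

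Named neighbours are the members of 6 lists past the threshold, at most 6 with the smallest p per list, with 9 single genes and Cdh1 added. The enzyme genes, lists and tests were chosen with earlier results of these data known. Of the listed genes, those without a probe set of their own were not analysed here, and the listed symbol Si was set aside because it leads to Pmel, another gene. Alternatives were other scalings, filters, variance models, weights, a replicate block, other choices of probe set and leaving out each array.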

Additional observations from a re-analysis of the deposited data

How the results depend on the processing

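The 7 enzyme genes that fell were lower and past the threshold in all 18 alternatives, with limma adjusted p up to 0.0446 for Cps1 and 0.0361 for Oat. Not every alternative could change their differences. Each gene had only 1 probe set of its own, so the other choices of probe set returned the same values. The filters on dim genes, the variance model and the replicate block also left the differences as they were. The count of 7 was the same in every alternative. Arg1 was not called in 18 and Arg2 not in 17; the sign of Arg1 turned with median centring (0.09), cyclic loess (0.025), quantile normalization (0.032) and centring on the epithelial median (0.17), and without 1 array in turn it ranged from -0.23 to 0.17. Arg2 was 0.15 with array weights and 0.05 with the epithelial median, and ranged from -0.287 to 0.048 without 1 array. The weights were 0.601, 0.266 and 2.985 for cKO 1, 2 and 3. Fits with array weights thus lean on cKO 3, the array with the pancreatic genes. Sirt5 was -0.058 with each array centred on the epithelial mean and -0.038 without cKO 3. Over all genes, 2825 were called, 1358 higher and 1467 lower; array weights gave 5834, 2921 and 2913. More genes were higher than lower under each of 3 other scalings: 1830 against 1413 (quantile), 1490 against 1091 (median centred) and 1682 against 1456 (cyclic loess). Without control 2, control 3 or cKO 3 the calls were 1226, 1505 and 1517, and over all left-out arrays they ranged from 1226 to 2713 (509 to 1275 higher and 717 to 1438 lower). Centring on the mean of the epithelial markers gave 681 higher and 1991 lower, and put the median of all genes at -0.21; centring on their median deviation gave 1780 higher and 852 lower, and put it at 0.09. Both were chosen after seeing the data. With the replicate block 2212 genes were called and all 7 enzyme genes kept their calls. Same-numbered arrays deviated together with correlations of -0.08, 0.13 and 0.14, and cKO 1 correlated best with control 3 (0.15). The labels state no pairing, and correlations over 3 arrays per group cannot settle whether there was one. Signal near background limits what can be said of Arg2, Sirt5, Nos2 and Car5a, and of Ppargc1a below. Car5a lay above background on 2 of 3 cKO arrays and on all 3 control arrays.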

Other observations

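Some members of the neighbouring lists passed the threshold outside the naming rule and were chosen after their values were seen. Slc25a13, the citrin gene and paralogue of Slc25a12, read 8.61, 8.61 and 8.68 in cKO and 9.18, 9.08 and 9.20 in control, a difference of -0.52 (SE 0.10, limma adjusted p = 0.017), while Slc25a12 differed by 0.73. Likewise Slc7a1, the plasma membrane carrier of cationic amino acids, rose by 0.67 (SE 0.12, limma adjusted p = 0.013), and Slc3a2, the heavy chain that pairs with Slc7a7, fell by 0.71 (SE 0.14, limma adjusted p = 0.016). Slc25a13 was not called with median centring, with the replicate block, with arrays centred on the epithelial median or without cKO 3 or any 1 control.

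Agmat, agmatinase, differed by -1.06 (SE 0.28, limma adjusted p = 0.048) and Ddah2 by 0.48 (SE 0.12, limma adjusted p = 0.039). Ppargc1a, a coactivator of mitochondrial genes, differed by -0.95 (SE 0.24, limma adjusted p = 0.042) and lay above background on 1 of 3 cKO arrays and on all 3 control arrays. Agmat kept its call only without cKO 3 and Ppargc1a only without cKO 1 when single arrays were left out, and Ddah2 lost it with each. With the replicate block, Ddah2 (adjusted p = 0.0972) and Ppargc1a (0.0586) were not called. With arrays centred on the mean of the epithelial markers, Ddah2 (0.188) and Slc7a1 (0.0553) were not, and with their median Agmat was not (0.0504). Slc7a1 was not called without cKO 3 or control 3, nor Slc3a2 without control 2.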
